A study of Mus musculus with 32 samples.

Results

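The arrays described here are the immunoprecipitates (IPs) from Sertoli cells of mice that received follicle-stimulating hormone (FSH) 4 h before the testes were collected, set against IPs of mice that received the GnRH antagonist alone. They were chosen by sample title: 2 arrays labelled Acyline.FSH_4h and 2 labelled Acyline, 4 of the 32 Affymetrix Mouse Gene 1.0 ST arrays in the series. All 4 come from adult AMH-Cre: RiboTag mice, in which Cre recombinase, driven by the promoter of anti-Müllerian hormone, adds a hemagglutinin (HA) tag to a ribosomal protein in Sertoli cells. The tagged ribosomes mark a cell type only as far as the promoter does. An anti-HA antibody then recovers tagged ribosomes from testis homogenate with the mRNAs bound to them. All 4 arrays come from mice with the tag and the acyline treatment, and the groups differed in the single injection of human FSH. For comparison the AMH-Cre line also gave 2 arrays 1 h after FSH on acyline, 5 saline IPs and 5 saline inputs (RNA of the homogenate before precipitation), 2 arrays of mice given the antagonist cetrorelix and 2 given cetrorelix and, 4 h before collection, testosterone. The Cyp17iCre: RiboTag line, which tags ribosomes of Leydig cells and, by the study's account, of some cells within the tubule, gave 2 acyline arrays and 2 arrays 4 h after luteinizing hormone (LH). The labels do not say what a replicate is. By the study's methods, arrays of the FSH and testosterone experiments were made from 2 animals a group whose serum hormones had been checked, so for these groups p-values rest on the spread between animals. For the LH arrays the replicate unit was not settled here.

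FSH is a pituitary hormone that acts on the testis through the FSH receptor, which in the adult testis is carried by Sertoli cells. The receptor couples to adenylyl cyclase. Cyclic AMP then activates protein kinase A, which phosphorylates CREB and related factors, and phosphodiesterases such as PDE4D break cyclic AMP down again and so limit the response. Sertoli cells feed and hold the germ cells, and products set by FSH include inhibin and niche ligands. A GnRH antagonist such as acyline lowers the release of LH and FSH from the pituitary, so an injected hormone meets cells that see less of the endogenous one.

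The 4 arrays carried the Sertoli cell profile. Of the Sertoli cell markers, 21 of 21 measured genes were enriched in the saline IP over input, and their summed signal (linear RMA units) was 69293 and 68340 on the acyline arrays and 67817 and 70947 on the FSH 4 h arrays, against 15685 to 18398 in the inputs. Summed Leydig cell markers (11 genes) were 6655 and 6475 on the acyline arrays and 6667 and 6659 on the FSH 4 h arrays. Without Star they were 6489 and 6312 against 6355 and 6299. The mean log2 signal of the 11 genes was 7.91 and 8.06 on acyline and 8.19 and 8.08 after FSH. Without Star it was 7.97 and 8.13 against 8.18 and 8.04. Spermatid markers (18 genes) ranged from 37530 to 39937 on acyline and from 39232 to 41362 after FSH, spermatogonia and spermatocyte markers (19 genes) from 17072 to 17806 and from 16458 to 18272, macrophage markers (11 genes) from 5250 to 5282 and from 4743 to 5486, and peritubular myoid markers (8 genes) from 4474 to 4771 and from 4320 to 4426. In the saline Sertoli IP, 2 Leydig, 1 macrophage and 2 myoid markers were themselves enriched over input, so these sums do not measure other cells alone. Macrophage markers summed to 3983 to 4742 in the inputs. Their mean log2 signal was higher there (7.78 to 7.99) than on acyline (7.04 and 7.04) and after FSH (7.06 and 6.93). FSH 4 h replicate 2 stood apart from the other AMH-Cre IPs on the third principal component (29.0, where the other 14 arrays lay between -11.9 and 11.4, with 11.5% of the variance). Counts with and without it are given below. In IPs, a change in the number of tagged cells and a change in bound mRNA per cell cannot be told apart.

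**Figure D1:**
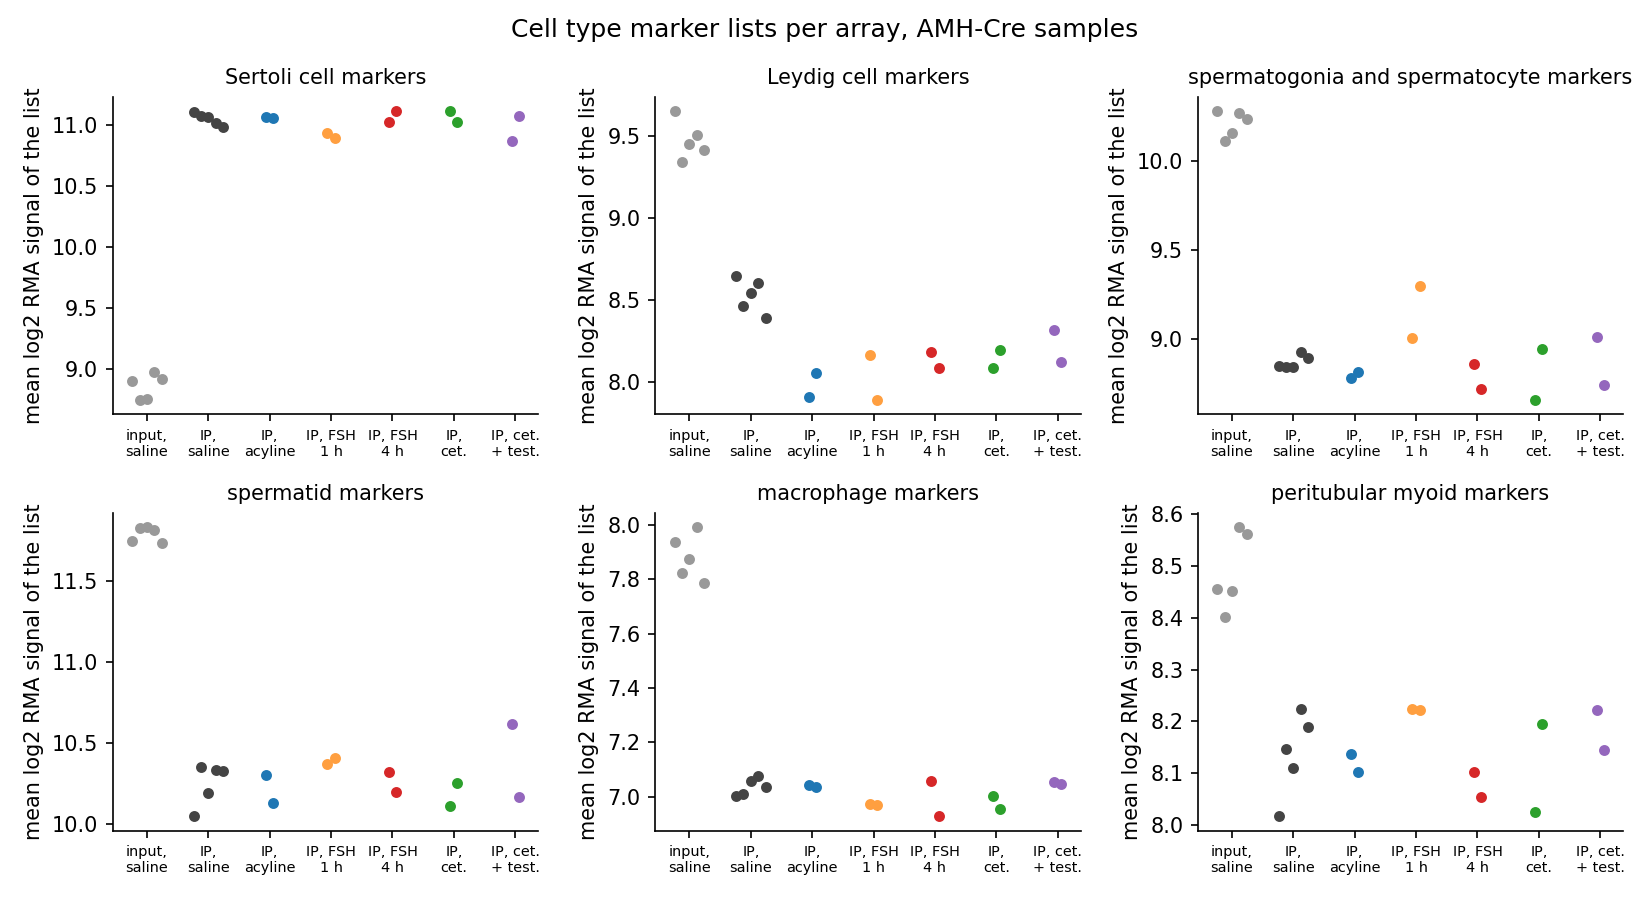
Mean log2 RMA signal of 6 cell type marker lists (y axis) on each AMH-Cre array (points, by group on the x axis; cet., cetrorelix; test., testosterone). The Sertoli list lies near 11 on all IPs and under 9 in the inputs, and the acyline and FSH 4 h arrays lie close to each other in every list.

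At 4 h after FSH, 5 of 24648 probe sets differed from acyline at an adjusted p under 0.05 (limma, Benjamini-Hochberg) and a fold of at least 1.5, which is 0.0203% of those tested. With 1 probe set per gene, 3 of 15476 were called (0.0194%). Higher after FSH were Pde4d, which encodes a cyclic AMP phosphodiesterase, and Star, which encodes the protein that moves cholesterol into mitochondria for steroid synthesis. Lower were Pyroxd2, which encodes a mitochondrial oxidoreductase-like protein, Ptchd3, which encodes a patched-domain membrane protein, and probe set 10340535, for which no gene is listed. The median change over all probe sets tested was -0.01 on the log2 scale. With only an unadjusted p under 0.05 (limma) and the same fold, 108 probe sets were higher and 103 lower (0.856% in all). Of these 211, 173 had no gene symbol listed, a class that makes up 26.4% of the probe sets tested, and 34 had 1 gene symbol.

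**Figure D2:**
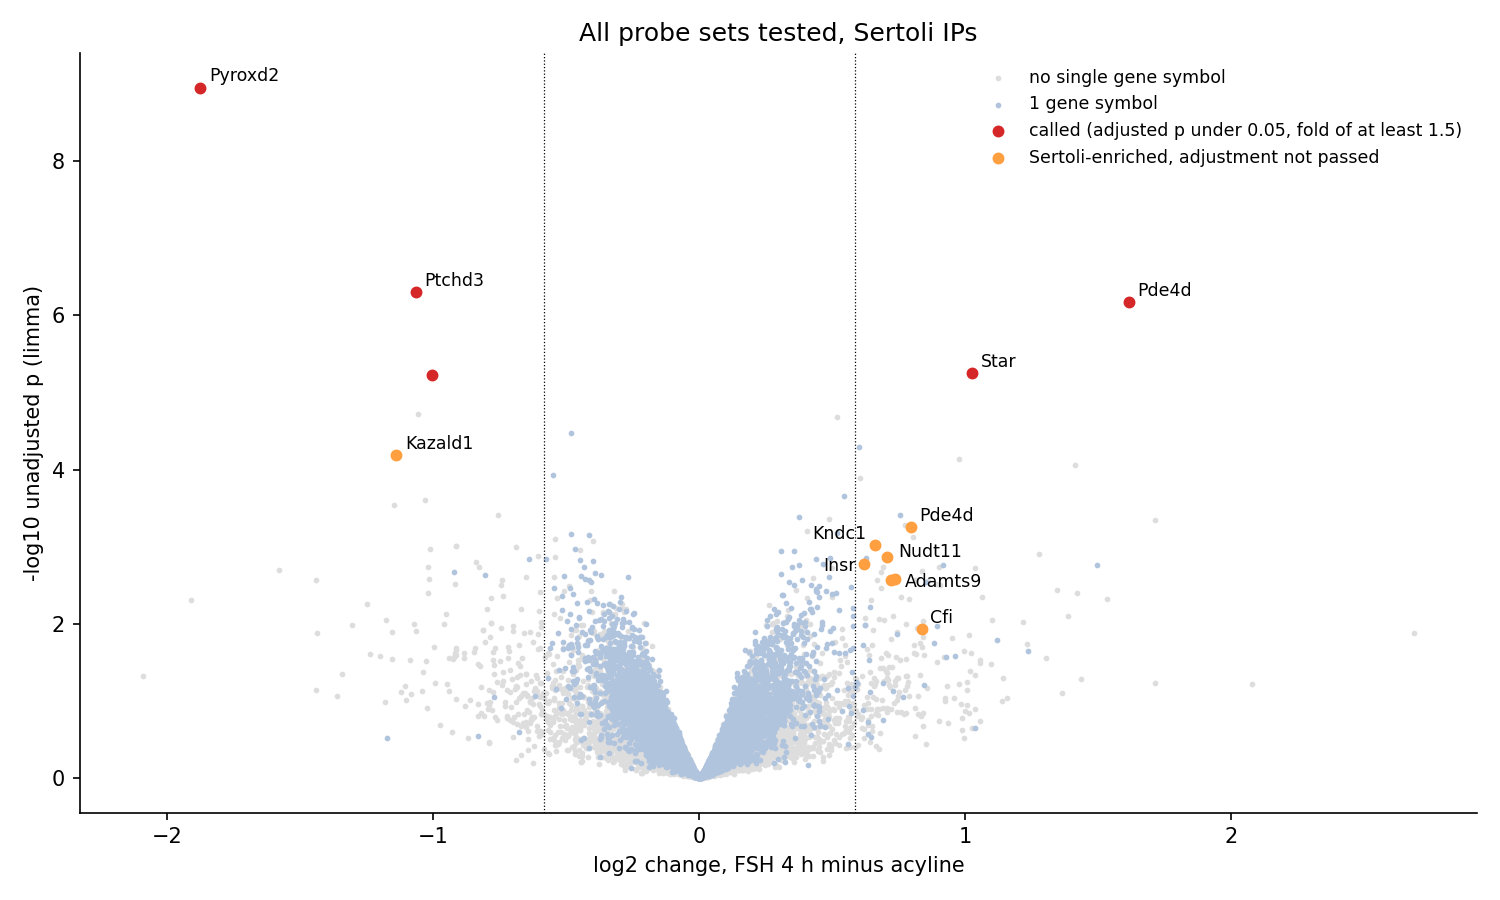
Log2 change of FSH 4 h minus acyline (x axis) against -log10 of the unadjusted limma p (y axis) for 24648 probe sets, with dotted lines at a fold of 1.5. Pyroxd2 lies far above all others on the left, and Pde4d and Star stand out on the right. Most points past the dotted lines have no single gene symbol (grey).

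Pde4d rose about 3-fold by its called probe set. Probe set 10407124 read 5.92 and 6.52 (log2 signal) on the acyline arrays and 7.76 and 7.90 on the FSH 4 h arrays, a rise of 1.62 ± 0.17 (log2, SE; 3.07-fold, adjusted p = 0.00552, limma). Both FSH 4 h arrays lay above both acyline arrays, both FSH 1 h arrays (6.20 and 6.29) and all 5 saline IPs (6.69 to 7.07). A second probe set, 10407097, is the brighter. It read 8.24 and 8.24 on acyline against 8.72 and 9.36 after FSH, a difference of 0.79 ± 0.17 that did not pass the adjustment (adjusted p = 0.576). Replicate 2 of FSH 4 h was well above replicate 1 there, and both lay above acyline. Both probe sets were enriched in the saline Sertoli IP over input (log2 2.10 and 1.90).

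Star rose 2.04-fold. The acyline arrays read 7.38 and 7.35 and the FSH 4 h arrays 8.29 and 8.49, a rise of 1.03 ± 0.13 (log2, SE, adjusted p = 0.0290, limma). The FSH 4 h arrays did not overlap with the acyline, FSH 1 h (7.56 and 7.37) or cetrorelix arrays (7.70 and 7.50). They lay among or slightly above the saline IPs (8.00 to 8.35), and FSH 4 h minus saline was 0.22 (adjusted p = 0.559, limma). Star is a Leydig cell gene that was depleted from the Sertoli IP: inputs read 9.27 to 9.78, -1.39 for IP minus input. The other 10 Leydig markers tested did not pass the test at 4 h of FSH: Hsd3b1, a steroid dehydrogenase, differed by 0.26 ± 0.23, Cyp11a1, the enzyme of the first step of steroid synthesis, by 0.22 ± 0.25, and Cyp17a1, a later enzyme of that route, by 0.07 ± 0.25. Over all 11 markers the changes ran from -0.26 to 1.03, the value of Star, with a median of 0.12. FSH 4 h arrays lay above acyline without overlap in 2 of the 11 and below in 1. Leydig IPs read 11.91 and 12.13 for Star on acyline and 13.17 and 12.82 at 4 h of LH. The part of Leydig RNA in the Sertoli IP value was not tested.

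Pyroxd2 fell 3.67-fold, the largest fall among the 15476 genes when each is read by its brightest probe set. It read 7.92 and 7.95 on acyline and 6.06 and 6.05 after FSH, a change of -1.88 ± 0.11 (log2, SE, adjusted p = 2.74e-05, limma). The FSH 1 h arrays (8.03 and 8.02) and the saline IPs (7.88 to 8.25) were at the acyline level. The cetrorelix arrays, from mice that received no FSH, were as low as the FSH 4 h arrays (6.14 and 5.99). The FSH 4 h value lay near the inputs, which read 5.57 to 6.61. The gene was enriched in the saline Sertoli IP (log2 1.69).

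Ptchd3 fell 2.09-fold. The acyline arrays read 8.99 and 8.87, the FSH 4 h arrays 7.95 and 7.79 and the FSH 1 h arrays 8.49 and 8.56 (-1.07 ± 0.11 for FSH 4 h minus acyline, adjusted p = 0.00552, limma). The saline IPs lay between 8.66 and 8.93, with no overlap with the FSH 4 h arrays. Ptchd3 was depleted from the Sertoli IP (log2 -1.41), with inputs from 10.21 to 10.35. The summed spermatid and spermatocyte markers given above overlapped between the acyline and FSH 4 h arrays. Of 18 spermatid markers 5 read higher on both FSH 4 h arrays than on both acyline arrays and 0 lower, where over all 15476 genes the arrays did not overlap with FSH 4 h higher in 14.3% and lower in 17.9%. The median change over depleted probe sets was 0.04. The part of germ cell RNA in the Ptchd3 value was not tested.

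**Figure D3:**
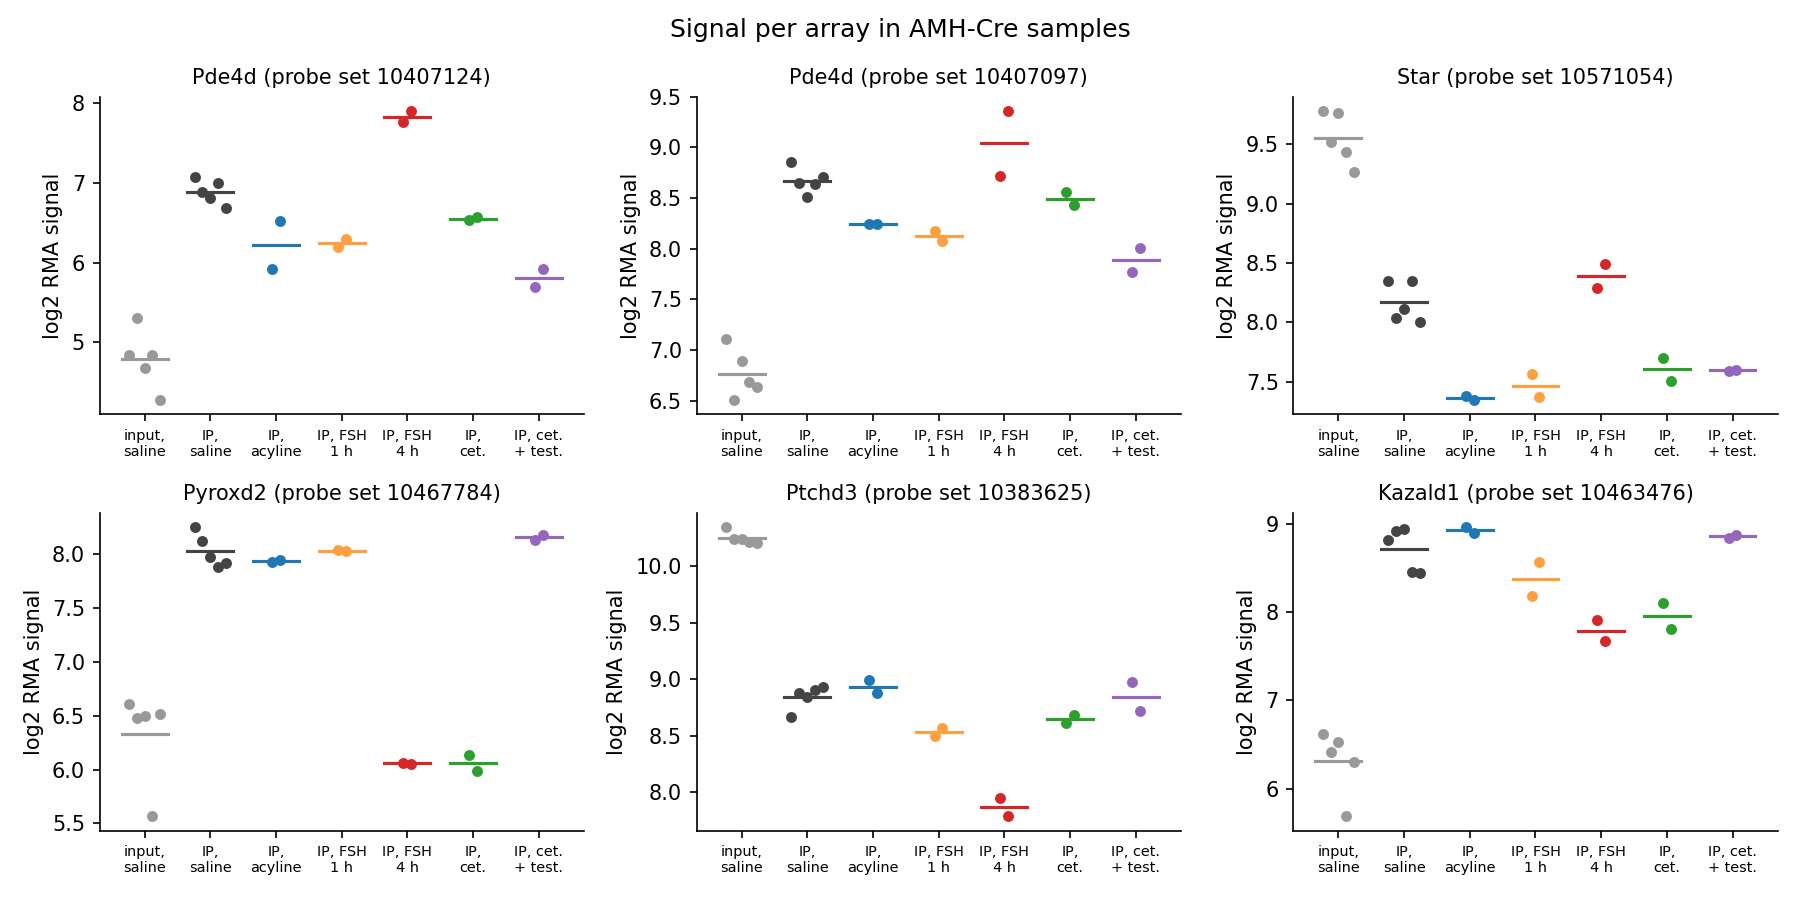
Log2 RMA signal (y axis) of 6 probe sets on each array (points) of the AMH-Cre line, by group (x axis; cet., cetrorelix; test., testosterone), with group means as bars. Pde4d and Star are highest of the acyline-treated groups at FSH 4 h, and Pyroxd2 is low at FSH 4 h and on the cetrorelix arrays without testosterone.

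The calls rest on the spread shared by all 15 AMH-Cre IPs. A fit of the 4 arrays alone called 0 probe sets (230 had a fold of at least 1.5 and an unadjusted p under 0.05, limma). Without FSH 4 h replicate 2 the count was 1 (Pyroxd2) and without replicate 1 it was 7. Without acyline replicate 1 it was 3 and without acyline replicate 2 it was 4. Star lost its call under each of these 4 omissions (adjusted p from 0.0657 to 0.343, limma).

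Probe sets enriched in the saline IP over input by at least 2-fold (3066 of those tested for FSH, from the 24.1% of all probe sets that differed between IP and input) held 2 calls (0.0652%), Pde4d and Pyroxd2. The 2770 depleted probe sets also held 2 (0.0722%), Ptchd3 and Star. By fold and unadjusted p, 8 enriched probe sets were higher (0.261%) and 2 lower (0.0652%), and of the depleted ones 5 were higher and 5 lower (0.181% each). The genes among the enriched ones that did not pass the adjustment were Kazald1, Cfi, Nudt11, Adamts9, Kndc1 and Insr. Kazald1, which encodes a Kazal-type protease inhibitor domain protein, read 8.96 and 8.90 on acyline and 7.91 and 7.67 after FSH (-1.14 ± 0.19, adjusted p = 0.158, limma). The FSH 4 h arrays lay below all saline IPs (8.44 to 8.94). With the Leydig IPs in the fit its adjusted p was 0.0327 (limma), its only call with p adjustment. The other alternatives with adjustment that kept all 4 arrays gave 0.0667 to 0.596 (limma).

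The other 5 read higher after FSH, and none passed the adjustment. Adamts9, a secreted metalloprotease, read 7.04 and 7.04 against 7.54 and 8.01 (0.73 ± 0.19, adjusted p = 0.751, limma), and its 6 probe sets all had a positive difference, from 0.36 to 0.73. The insulin receptor gene Insr read 8.59 and 8.52 against 8.97 and 9.38 by one probe set (0.62 ± 0.15) and 9.20 and 9.38 against 9.69 and 9.88 by a brighter one (0.49 ± 0.12). Nudt11, which encodes an inositol pyrophosphate hydrolase, read 7.32 and 7.45 against 7.95 and 8.23 (0.71 ± 0.17). Kndc1 read 8.34 and 8.53 against 9.10 and 9.09 (0.66 ± 0.15), and Cfi, complement factor I, read 6.60 and 5.96 against 7.17 and 7.07 (0.84 ± 0.28). In none of these genes did the FSH 4 h arrays overlap with the acyline arrays, which was a condition for naming them. Over all genes that was so in 14.3% with FSH 4 h higher and in 17.9% with FSH 4 h lower.

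In the list of cyclic AMP feedback and CREB target genes, most members other than Pde4d differed little. Of 22 tested genes, each read by its brightest probe set, 0 were called and 3 had an unadjusted p under 0.05 (limma), all higher: Pde4d, Prkar2b, a regulatory subunit of protein kinase A (0.57 ± 0.21), and Per1, a clock gene with a CREB-responsive promoter (0.32 ± 0.11). Among all genes 1.56% were higher and 2.16% lower at that p. The list's median was 0.11, against -0.01 for all genes. Sik1, a kinase that CREB induces and that restrains CREB coactivators, read 9.02 and 8.95 against 9.42 and 9.71 (0.59 ± 0.29), and the brightest probe sets of Nr4a1 (0.06 ± 0.10), Crem (0.05 ± 0.14) and Dusp1 (0.01 ± 0.13), all known targets of the pathway, differed by less than their SE. FSH 4 h arrays lay above acyline in 7 of the 22 and below in 2, beside 14.3% and 17.9% of all genes.

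The core of the cyclic AMP response element, TGACG on either strand, was searched in the 250 bases before the start of these genes, because CREB binds such elements. RefSeq windows (GRCm38.p6) were matched for 7 of the 10 named genes and 16 of 21 further members of the list. The core occurred before a start of 2 of the 7 and 10 of the 16, beside 17.8% of 32851 windows of the whole table. A gene can have more than 1 window, so counts by gene and the share by window are unlike measures. The 16 were listed as cyclic AMP feedback and CREB target genes, so their share may be set by the choice of the list. Of the named genes, Kazald1 and Adamts9 held the core, and among list members with an unadjusted p under 0.05 Per1 did. No match was found before Pde4d, Pyroxd2 or Ptchd3 in the windows in the table. Pde4d is transcribed from several starts, and which one a probe set reads is not known here. The windows of Pyroxd2 and Pde4d, the largest changes among the called genes, stand beside those of the genes with a match, 5′ to 3′ on the gene's strand with the core in capitals.
Pyroxd2, chr19:42752776-42753025, minus strand: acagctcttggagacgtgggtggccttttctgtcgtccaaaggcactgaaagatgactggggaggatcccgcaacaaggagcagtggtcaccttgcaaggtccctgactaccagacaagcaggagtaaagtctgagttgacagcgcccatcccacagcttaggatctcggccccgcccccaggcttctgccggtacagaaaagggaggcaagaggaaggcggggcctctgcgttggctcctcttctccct
Pde4d, chr13:108653927-108654176, plus strand: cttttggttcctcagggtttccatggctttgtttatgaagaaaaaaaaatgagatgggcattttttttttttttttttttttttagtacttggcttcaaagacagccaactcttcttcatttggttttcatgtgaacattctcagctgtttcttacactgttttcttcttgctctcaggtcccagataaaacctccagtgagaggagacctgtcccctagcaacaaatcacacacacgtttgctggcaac
Kazald1, chr19:45074991-45075240, plus strand: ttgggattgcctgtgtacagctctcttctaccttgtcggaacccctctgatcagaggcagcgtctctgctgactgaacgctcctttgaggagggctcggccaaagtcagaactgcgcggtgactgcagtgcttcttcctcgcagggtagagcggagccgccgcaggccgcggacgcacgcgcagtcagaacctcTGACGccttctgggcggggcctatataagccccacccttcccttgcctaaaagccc
Adamts9, chr6:92943535-92943784, minus strand: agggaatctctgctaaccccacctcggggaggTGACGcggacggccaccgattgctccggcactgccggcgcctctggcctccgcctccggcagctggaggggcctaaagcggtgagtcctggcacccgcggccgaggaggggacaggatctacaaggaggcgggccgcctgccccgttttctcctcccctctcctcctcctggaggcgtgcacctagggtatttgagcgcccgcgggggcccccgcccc
Per1, chr11:69098699-69098948, plus strand: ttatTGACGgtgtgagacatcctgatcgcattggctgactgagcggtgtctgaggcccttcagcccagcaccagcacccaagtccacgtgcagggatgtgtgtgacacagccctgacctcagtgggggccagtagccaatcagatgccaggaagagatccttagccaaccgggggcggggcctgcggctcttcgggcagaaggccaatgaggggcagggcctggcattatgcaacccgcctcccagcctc
Per1, chr11:69099902-69100151, plus strand: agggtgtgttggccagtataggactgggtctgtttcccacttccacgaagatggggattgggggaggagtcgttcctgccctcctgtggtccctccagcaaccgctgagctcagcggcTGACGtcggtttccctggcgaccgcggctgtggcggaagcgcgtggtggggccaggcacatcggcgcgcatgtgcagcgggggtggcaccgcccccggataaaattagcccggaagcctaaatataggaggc
The core begins 56 bases before one start in Kazald1. A second Kazald1 window (chr19:45075837-45076086) held no match and is not printed. In Adamts9 the core begins 218 bases before the start. In Per1 it begins 246 bases before one start and 132 bases before the other.

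**Figure D4:**
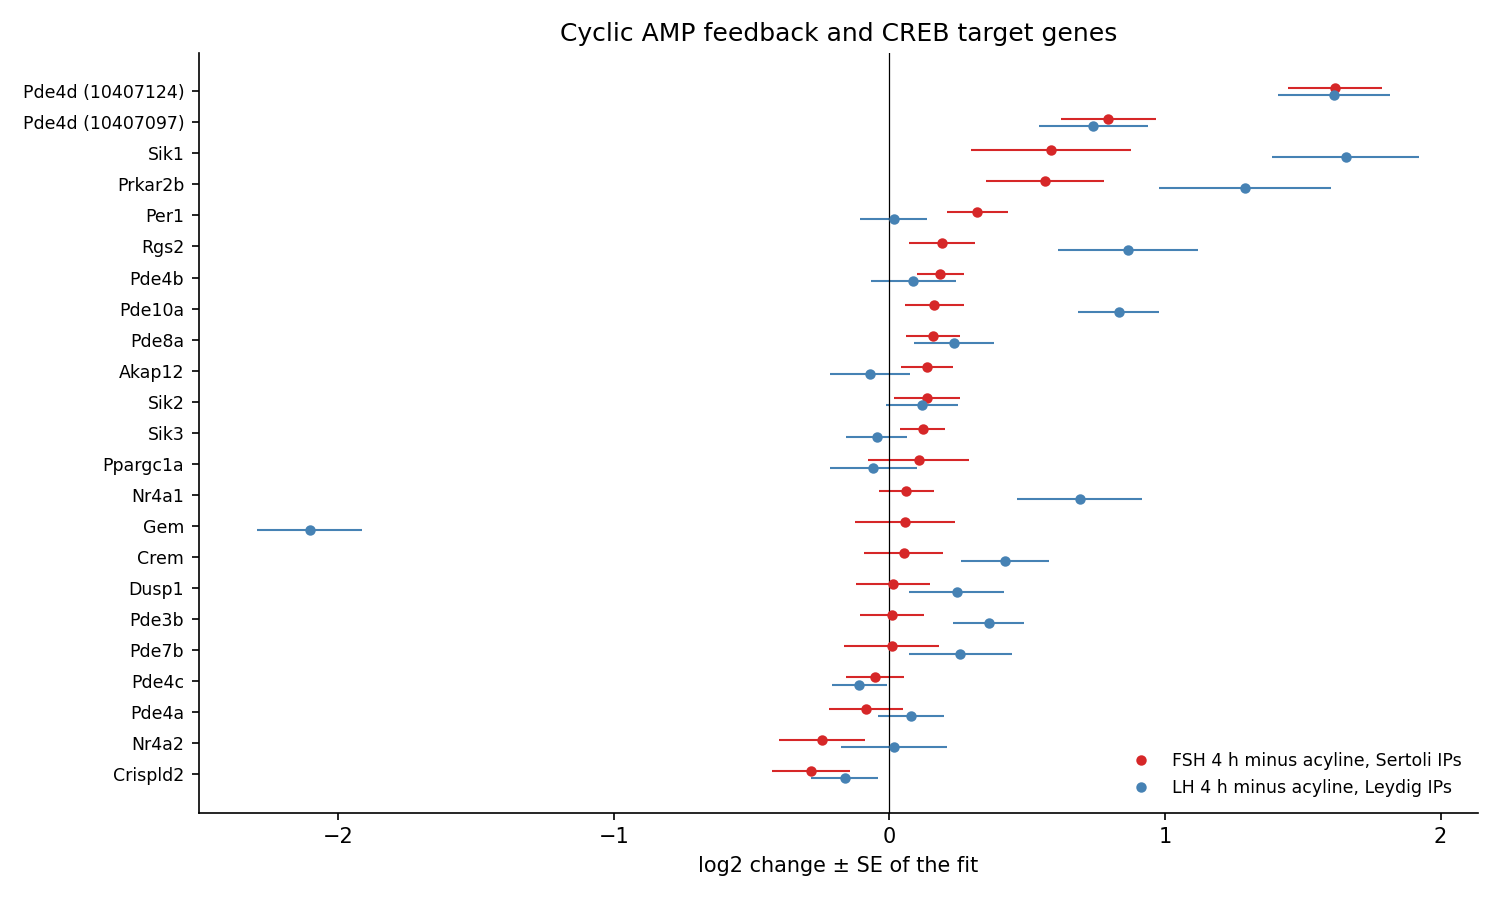
Log2 change ± SE of the fit (x axis) for the genes of the cyclic AMP feedback and CREB target list (y axis) after 4 h of FSH in Sertoli IPs (red) and after 4 h of LH in Leydig IPs (blue). Both Pde4d probe sets lie near the same value in both kinds of IP, whereas Sik1, Rgs2 and Pde10a lie farther right after LH. Gem lies farther left after LH (-2.10, beside 0.06 after FSH).

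The remaining lists held 1 call, Star, and the other members named here differed at most at an unadjusted p under 0.05 (limma). Over all 15476 genes 1.56% were higher and 2.16% lower at that p, and the counts by list stand beside these shares. In the gonadotropin receptor and cyclic AMP machinery list (25 genes tested), 1 gene, Prkar2b, had an unadjusted p under 0.05 and the median was -0.04. The FSH receptor gene Fshr read 9.04 and 9.08 on acyline and 8.90 and 8.95 after FSH (-0.13 ± 0.15). Of 27 immediate early genes 1 was higher, Junb (0.38 ± 0.16), with 6.77 and 6.71 on acyline against 6.83 and 7.42 after FSH, so that replicate 2 carried most of it, and Fos differed by -0.37 ± 0.17. In the inhibin, activin and AMH system 0 of 22 genes had such a p: Inha, the inhibin alpha subunit, differed by 0.16 ± 0.11 and Inhbb, a beta subunit, by 0.16 ± 0.11. Among 16 germ cell niche ligands Kitl, the ligand of the KIT receptor on germ cells, was higher (0.29 ± 0.10) and Wnt6 lower (-0.42 ± 0.18). Of 17 circadian clock genes Per1 and Per2 (0.33 ± 0.11) were higher and Hlf lower (-0.32 ± 0.13). Slc7a1, which carries cationic amino acids, was the only 1 of 24 stress and ATF4 response genes (0.31 ± 0.09) with an unadjusted p under 0.05. Cytosolic ribosomal protein genes (55 tested) had a median of 0.05, with 3 higher and 1 lower at that p. FSH 4 h arrays lay above acyline without overlap in 17 of the 55 and below in 4, beside 14.3% and 17.9% of all genes. Glycolysis and lactate supply (24), blood-testis barrier (21), retinoid (17) and iron handling genes (14) held 0 members with such a p, and the glucocorticoid list (12) held Per1. Androgen-responsive genes (9) held Kazald1, the proteases and inhibitors (18) Mmp2 (-0.30) and the cell cycle list (21) Mcm5 (-0.20), all lower. Counts above and below acyline without overlap were 3 and 7 for cyclic AMP machinery and 5 and 9 for immediate early genes. The inhibin system had 3 and 1, niche ligands 2 and 2 and steroid genes 2 and 1. Clock genes had 5 and 5, stress genes 4 and 4, glycolysis 0 and 5 and barrier genes 3 and 4. Retinoid genes had 0 and 5, iron handling 0 and 3, glucocorticoid 1 and 2 and androgen-responsive genes 0 and 4. Proteases and inhibitors had 2 and 6 and cell cycle genes 0 and 6. Eomes (-0.24 ± 0.32), Reln (-0.11 ± 0.19) and Chst2 (-0.06 ± 0.23), genes that the study follows after FSH, differed by less than their SE at 4 h. At 1 h all 3 read below acyline without a call, Eomes with 6.73 and 7.23 against 7.87 and 7.96, Reln with 8.64 and 8.82 against 9.38 and 9.44 and Chst2 with 7.23 and 7.49 against 8.29 and 8.06. On the same 1 h arrays germ cell markers read higher, as given below.

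In direct comparison with 1 h of FSH, 4 probe sets were higher and 2 lower at 4 h (0.0243% of those tested). Tested with 1 probe set per gene, the counts were 11 higher and 42 lower. The 4 h arrays are shared with the comparison above. Pde4d was higher by 1.59 (adjusted p = 0.00661, limma) and Pyroxd2 lower by -1.97 (adjusted p = 1.56e-05). Aass, an enzyme of lysine breakdown, read 7.64 and 7.90 at 1 h and 8.84 and 8.72 at 4 h (1.01, adjusted p = 0.00612), and Zswim5 read 8.21 and 8.31 against 9.00 and 9.16 (0.82, adjusted p = 0.0116). The gene 1700006A11Rik, depleted from the Sertoli IP, read 10.16 and 10.35 at 1 h and 9.26 and 8.92 at 4 h (-1.17, adjusted p = 0.0315). The count was 22 without FSH 4 h replicate 1, 4 without replicate 2, 2 without FSH 1 h replicate 1 and 3 without its replicate 2. Star (adjusted p = 0.0504) and Ptchd3 (adjusted p = 0.0517) narrowly missed the threshold here. The FSH 1 h arrays read spermatogonia and spermatocyte markers at 19347 and 21745, above the 16458 and 18272 of the 4 h arrays, and Sertoli markers at 65953 and 64260, below them. Probe sets enriched in the Sertoli IP had a median difference of 0.12 between 4 h and 1 h and depleted ones one of -0.08, beside -0.01 over all probe sets. The part of this in single genes was not tested. FSH 1 h against acyline gave 0 calls by limma (0.00%), with 399 by fold and unadjusted p (1.62%).

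Against saline IPs, 2 probe sets were lower at FSH 4 h and 0 higher (0.00811% called in all). They were Pyroxd2 (-1.97, adjusted p = 1.99e-06) and Ptchd3 (-0.98, adjusted p = 0.00225). By fold and unadjusted p (limma) 83 probe sets were higher and 124 lower (0.840%). Pde4d stood 0.94 above saline without passing (adjusted p = 0.105). Without FSH 4 h replicate 1 the count was 4, without replicate 2 it was 1, and without saline replicate 5 it was 5.

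**Figure D5:**
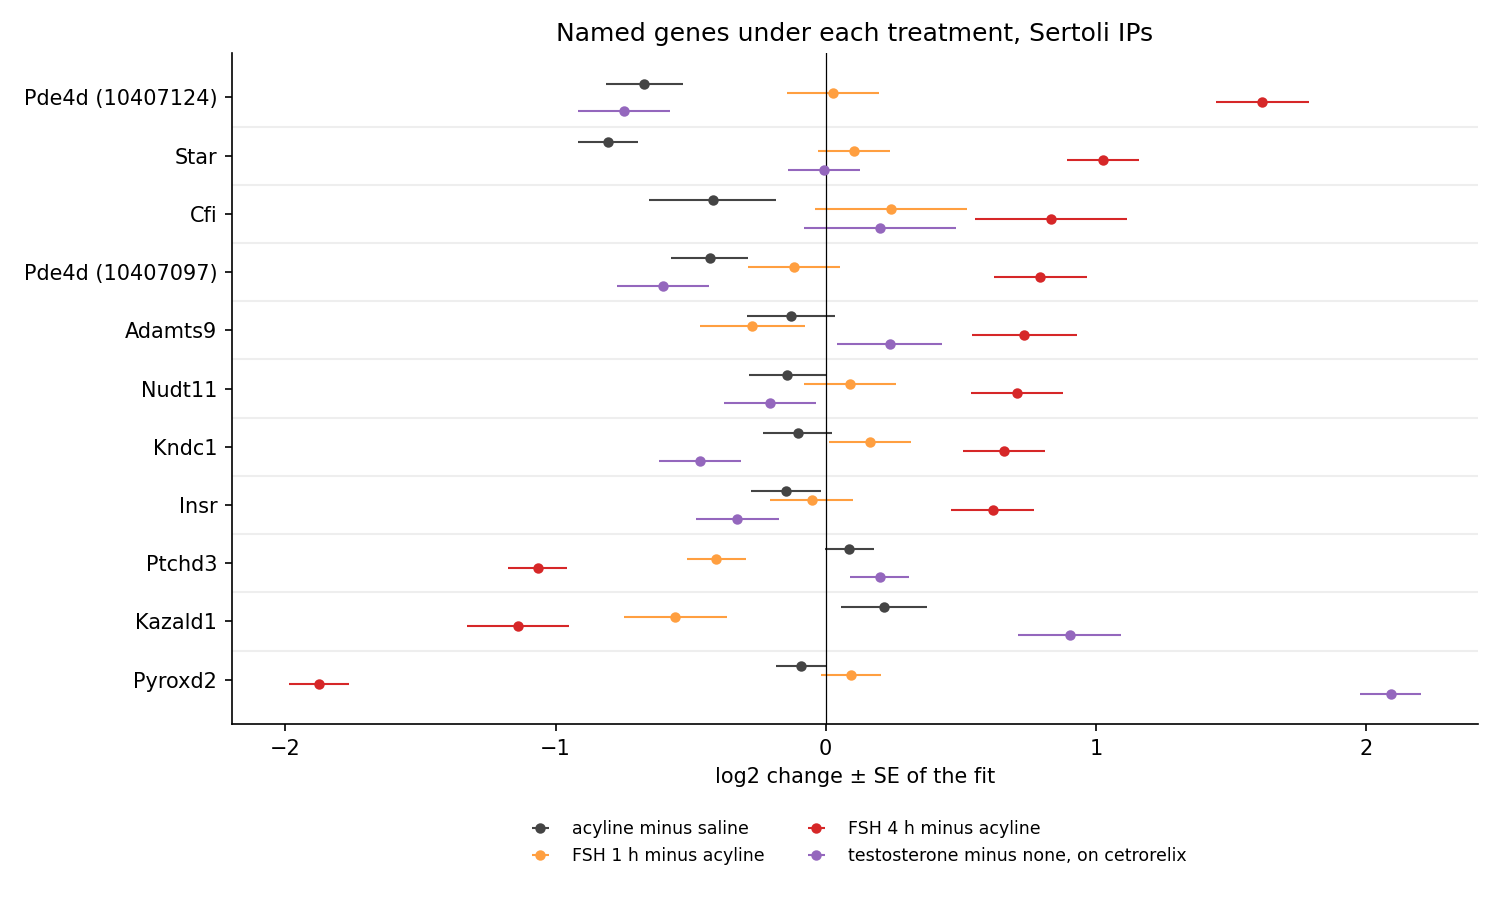
Log2 change ± SE of the fit (x axis) in Sertoli IPs for 11 named probe sets (y axis) under 4 treatment comparisons: acyline minus saline, FSH 1 h and FSH 4 h minus acyline, and testosterone on cetrorelix minus cetrorelix alone. Pde4d and Star rise at FSH 4 h and are below zero for acyline minus saline, and Pyroxd2 and Kazald1 point opposite ways for FSH 4 h and testosterone.

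Testosterone on cetrorelix was the other hormone given to Sertoli cells, and 4 probe sets differed between the FSH and the testosterone effect (0.0162% called). By the study's methods these were separate experiments with unlike antagonists, acyline for FSH and cetrorelix for testosterone. Antagonist and experiment cannot be told apart here from hormone. Pyroxd2 had the largest difference: the cetrorelix arrays read 6.14 and 5.99, and cetrorelix with testosterone read 8.13 and 8.17, so that the FSH effect minus the testosterone effect was -3.97 (adjusted p = 2.51e-07, limma). The cetrorelix arrays thus lay at the level of the FSH 4 h arrays, and the acyline arrays, also from antagonist-treated mice, at that of testosterone. Kazald1 had the same arrangement: 8.10 and 7.81 on cetrorelix, 8.84 and 8.88 with testosterone, and a difference of effects of -2.04 (adjusted p = 0.0402). For Pde4d the difference of effects was 2.36 (adjusted p = 0.00580), with 6.53 and 6.57 on cetrorelix and 5.69 and 5.91 with testosterone. Ptchd3 differed by -1.27 (adjusted p = 0.0256). Leaving out 1 array of these groups left 1 to 3 calls, with 1 without FSH 4 h replicate 2, cetrorelix replicate 2 or testosterone replicate 1.

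Pyroxd2 and Kazald1 both lie on chromosome 19, which holds 3.19% of the 1-symbol probe sets tested with a chromosome and 3 of the 33 (9.09%) with a fold of 1.5 and an unadjusted p under 0.05. Other chromosomes held more of the 33: chromosome 4 held 5 (15.2%, beside 6.69% of those tested), and chromosomes 3, 6, 7 and 8 held 4 each (12.1%, beside 4.67% to 8.18%). The third on chromosome 19, chosen after its values were seen, is Entpd1, an ectonucleotidase, which read 8.68 and 8.76 on acyline, 7.71 and 7.88 after 4 h of FSH, 7.95 and 7.76 on cetrorelix and 8.56 and 8.48 with testosterone (-0.92 ± 0.24 for FSH 4 h minus acyline, adjusted p = 0.751, limma). Col17a1, also on chromosome 19 and also chosen after its values were seen, read 6.98 and 6.87 on acyline, 6.42 and 6.47 after FSH and 6.44 and 6.42 on cetrorelix (-0.48 ± 0.08, adjusted p = 0.105). In these 4 genes, 2 of them chosen after their values were seen, both FSH 4 h and both cetrorelix arrays read below every acyline, FSH 1 h and testosterone array. In the saline IPs Entpd1 ranged from 7.86 to 8.82, with replicate 5 as the low array, while Pyroxd2, Kazald1 and Col17a1 had no saline array at the level of FSH 4 h. A further chromosome 19 gene, Taf5, which encodes a subunit of the general transcription factor TFIID, is among the 20 one-symbol probe sets with the smallest p and went the other way: it read 7.66 and 7.69 on acyline and 8.01 and 7.95 after FSH (0.31 ± 0.07, adjusted p = 0.706), with 7.86 and 7.94 on cetrorelix and 7.88 and 7.84 with testosterone. The labels give no strain background. With 2 animals a group, an effect of FSH on Pyroxd2 and Kazald1 and a difference between the animals, inherited ones near these genes included, cannot be told apart.

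The LH response of Leydig cells served as the comparison with the other gonadotropin. By the study's methods, the 2 experiments also differed in Cre line, days of acyline and units of hormone injected. These differences cannot be told apart here from those of hormone and cell type. At 4 h of LH, 541 of 25399 probe sets were called in Leydig IPs (2.13%), 271 higher and 270 lower. The FSH effect and the LH effect differed in 85 probe sets (0.335%), 48 with a higher and 37 with a lower FSH effect. This count moved with single arrays, from 17 without Leydig acyline replicate 2 to 420 without LH 4 h replicate 2, and it was 86 and 22 without FSH 4 h replicates 1 and 2. Of the 85, 71 were called for LH and 2, Pyroxd2 (-1.69, adjusted p = 0.000154) and Ptchd3 (-1.25, adjusted p = 0.00404), for FSH. Pde4d had near equal effects in both kinds of IP: in Leydig IPs it read 5.45 and 5.28 on acyline and 6.95 and 7.00 after LH, a rise of 1.61 ± 0.20. The Leydig IPs also held Sertoli RNA: summed Sertoli markers (21 genes) were 33045 and 30297 on acyline and 28644 and 31841 after LH, above the 16648 to 17982 of the inputs of that line. Its part in the Leydig IP values was not tested. Star also rose by 0.98 ± 0.16 after LH, at a far higher level. Slc16a3, a lactate and pyruvate transporter, rose by 3.24 ± 0.28 after LH and differed by -0.24 ± 0.25 after FSH (difference of effects -3.48, adjusted p = 0.000487). Lifr, a cytokine receptor gene, fell by 1.45 on the log2 scale after LH and differed by 0.07 ± 0.08 after FSH (difference of effects 1.52, adjusted p = 5.67e-05). Of the probe sets higher after LH and tested in Sertoli IPs (256), 2 were called higher after FSH, Pde4d and Star, and 25 (9.77%) had an unadjusted p under 0.05 with FSH higher, beside 1.94% of all probe sets. Only some of these 25 carried 1 gene symbol, so the count is not one of genes. The median FSH change of the 256 was 0.06. Of the 255 lower after LH, 0 were called for FSH (11 were lower at an unadjusted p under 0.05, 4.31%, beside 2.47%, limma). Nudt11, Prkar2b, Per2 and Slc7a1 were among those higher in both, with LH changes of 0.93, 1.29, 0.80 and 0.91, and Id2, an inhibitor of differentiation, went opposite ways, with 0.76 after LH and -0.34 ± 0.12 after FSH.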

How the data were processed

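The series comprises 32 arrays of Affymetrix Mouse Gene 1.0 ST type, of IP or input RNA, with 100 ng amplified for each. RMA normalization was done by the authors, and the deposited table gives log2 signal for 35556 probe sets. The RMA version and genome build are not given in the sources used here. No array was normalized again except in the alternatives. Groups follow the sample titles; 4 cetrorelix arrays whose source label reads input were taken as IPs, as their titles read.

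Moderated contrasts were fitted in R 4.3.3 with limma 3.58.1 over all 15 AMH-Cre IPs (9 residual degrees of freedom), or over 24 IPs of both Cre lines (14) for LH, or over 10 saline IPs and inputs (8). Probe sets entered a test if the signal on the linear scale was over 50 on at least 1 array of that fit. A call needed an adjusted p under 0.05 (Benjamini-Hochberg) and a fold of 1.5 (2 for IP against input). Of the probe sets, 21789 carry 1 gene symbol, 1621 several and 12146 none in the platform annotation; 21698 symbols matched RefSeq gene IDs. For a gene with several probe sets in a list, the brightest was used. Named genes are the called ones, the Sertoli-enriched ones past a fold of 1.5 and an unadjusted p under 0.05 without overlap of the arrays, members of 25 gene lists and Eomes, Reln, Chst2 and Pde4d. The members and lists were chosen with earlier results of these data known. Replicate numbers were not taken to pair arrays. Alternatives changed the filter, normalization, test, fit, block and arrays. Promoter windows are those of RefSeq, and figures were drawn in Python 3.11.15 with matplotlib 3.10.9. With 2 arrays per group, their number limits the precision.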

Additional observations from a re-analysis of the deposited data

Results flagged for a closer look

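Of 24 groups of 5 saline arrays tested for an array apart from the rest, 2 held one, where chance gives about 1 in 20 groups. Pyroxd2 read 5.57 on input replicate 4 against 6.48 to 6.61 on the other inputs (gap over range 0.875), and Ptchd3 read 10.35 on input replicate 1 against 10.21 to 10.25 (0.731).

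Among the probe sets called at FSH 4 h against acyline and the Sertoli-enriched ones named beside them, 4 had effects that differed between groups by a test of the difference (limma). Further probe sets differed in these comparisons, as counted in the report. They include Adamts9 probe sets 10546452 and 10546434, which changed by -0.41 and -0.56 after LH. Their FSH 4 h effect minus LH 4 h effect was 0.76 and 1.05 (adjusted p = 0.0112 and 0.0114, limma). FSH 4 h minus FSH 1 h was 1.59 for Pde4d (adjusted p = 0.00661) and -1.97 for Pyroxd2 (adjusted p = 1.56e-05). The FSH 4 h effect minus the testosterone effect was -1.27 for Ptchd3, 2.36 for Pde4d, -3.97 for Pyroxd2 and -2.04 for Kazald1, with adjusted p from 2.51e-07 to 0.0402. The FSH 4 h effect minus the LH 4 h effect was -1.25 for Ptchd3 and -1.69 for Pyroxd2 (adjusted p = 0.00404 and 0.000154).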

How the results depend on the processing

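Counts are given as probe sets higher and lower. FSH 4 h against acyline gave 2 and 3 in the report, 1 and 2 without a filter on low values, 1 and 2 after quantile normalization, 0 and 2 with an ordinary contrast, 0 and 0 in a fit of only the groups compared, 1 and 2 with 1 probe set per gene, 108 and 103 without p adjustment and 79 and 72 with neither. FSH 4 h against FSH 1 h gave 4 and 2, then 4 and 1 without the filter, 4 and 1 with the ordinary contrast, 0 and 4 in the fit of only the groups compared, 11 and 42 with 1 probe set per gene, 155 and 432 without adjustment and 121 and 336 with neither moderation nor adjustment. FSH 4 h against saline gave 0 and 2, then 1 and 2 without the filter, 0 and 1 in the fit of only the groups compared, 0 and 4 with 1 probe set per gene, 83 and 124 without adjustment and 59 and 92 with neither. The difference from the LH effect gave 48 and 37, 30 and 20 without the filter, 30 and 34 with median-centered arrays and 519 and 410 without adjustment. The difference from the testosterone effect gave 1 and 3, 1 and 1 without the filter, 0 and 1 with the ordinary contrast and 226 and 230 without adjustment. Same-numbered arrays did not deviate together in every pair of groups (correlation of deviations 0.12 for acyline and FSH 4 h, -0.13 for FSH 1 h and FSH 4 h). With the replicate number as a block the counts were 0 and 1 (acyline), 0 and 1 (FSH 1 h), 0 and 1 (saline), 26 and 21 (LH) and 0 and 2 (testosterone). The crossed pairing, added after seeing the data, gave 0 and 1 for FSH 1 h. Leaving out 1 array gave 0 to 4 and 1 to 3 against acyline, 0 to 17 and 1 to 5 against FSH 1 h, 0 to 1 and 1 to 5 against saline, 10 to 170 and 7 to 250 for the LH difference, 0 to 2 and 1 to 2 for the testosterone difference and 3024 to 3139 and 2882 to 2974 for IP against input, where the lone array of an arm is assumed to vary like the other groups. For IP against input this meant 1 IP and 1 input array of the same replicate number, left out together. The cause of the shifts in all these counts was not tested.

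Of the called genes, Pyroxd2 kept its call under 16 of 17 alternatives (adjusted p up to 0.0754, in the fit of only the groups compared), Ptchd3 under 13 of 17, Pde4d under 12 of 16 and Star under 8 of 17, and no direction turned. The settings without p adjustment and without a minimum fold only loosen the call, so a called probe set keeps its call there by construction. For Pde4d, the setting with 1 probe set per gene is not among the 16. It reads the gene by the brighter probe set, 10407097, which was not called there (adjusted p = 0.348, limma). The alternative with only probe sets that have a gene symbol was added after seeing the data.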
